A study of Mus musculus with 7 samples.

Results

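The genes described here are 40 mouse genes of the cell division cycle, 20 that act in DNA replication and the S phase that holds it (Mcm2 to Gins2 below) and 20 that act in mitosis (Ccnb1 to Birc5). They are a list of gene names, and each was found as a row of its own NCBI gene number among the 24990 features of every library. Of the 40, 39 passed the filter on low counts, 20 S-phase and 19 mitotic genes, among 10265 genes tested. The exception was Aurkb, the mitotic kinase of the chromosomal passenger complex, which had 8, 2, 8, 6 and 3 counts in WT1, WT2, pKO1, pKO2 and pInv, was listed at 0 in Ctrl and had 3 counts in KD. The RNA came from embryoid bodies, the aggregates in which embryonic stem cells differentiate, grown from the mouse embryonic stem cell line R1 and collected on day 4. The series perturbed Meteor, a long non-coding RNA locus which the title links to Eomes, a transcription factor of the primitive streak.

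The 7 libraries fell by title into WT (WT1, WT2), a knockout of the Meteor promoter (pKO1, pKO2), an inversion of that promoter (pInv, 1 library), an empty-vector control (Ctrl, 1 library) and a CRISPR knockdown of Meteor (KD, 1 library). The genotype field disagrees with the title of 5 libraries: it gives the promoter knockout for WT1 and WT2, the inversion for pKO1 and wild type for pKO2 and pInv. It names dCas9 for the knockdown where the design text names Cas9. Groups below follow the titles, and each direction between groups rests on that choice. All libraries shared the stem cell line, the removal of feeder cells on gelatin, serum medium without Lif, and hanging drops of 500 cells in 27 µl that were pooled on the way. The labels do not say whether an edited line was 1 clone, nor whether WT1 and WT2, or pKO1 and pKO2, were grown apart. The p-values thus cover the spread among these libraries alone, part of which may be technical.

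As background, replication origins are licensed in G1 when Cdc6 and Cdt1 load the Mcm2 to Mcm7 helicase, and geminin (Gmnn) later holds Cdt1 back. Cyclin E with Cdk2 starts S phase, in which the GINS complex (Gins2) activates the helicase, primase and polymerase alpha begin each strand, and Pcna clamps the replicative polymerases. In mitosis, cyclin B with Cdk1, Plk1 and the Aurora kinases drive entry and spindle assembly. The checkpoint proteins Bub1 and Bub1b hold back the anaphase promoting complex, whose activator is Cdc20. Transcription of the first set is classically tied to E2F sites in G1/S promoters, and that of the second to the CHR element with CCAAT boxes in G2/M promoters. Pluripotent cells cycle fast, with short gap phases, and proliferate throughout early differentiation.

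Matches to these motifs were spread unevenly over the promoters of the 2 sets. Among RefSeq promoter sequences of GRCm38.p6, a later build than the mm9 of the files, 32 of the 40 genes had an entry of 300 bases, 250 before and 50 after the gene's start. The E2F motif was taken as TTTCCCGC, TTTCGCGC, TTTGCCGC or TTTGGCGC, the CCAAT box as CCAAT and the CHR as TTTGAA, each on both strands. An E2F match lay in 7 of 18 S-phase promoters (38.9%) and 1 of 16 mitotic promoters (6.25%), against 4.28% of the 10258 promoters of genes tested and 2.26% of all 32851. A CHR match lay in 12 of 16 mitotic promoters (75.0%) and 2 of 18 S-phase promoters (11.1%), against 12.3% for genes tested and 17.9% for all. A CCAAT box lay in 93.8% of mitotic and 66.7% of S-phase promoters, against 38.1% for genes tested and 37.4% for all. A match is a run of letters, and no binding was measured. The promoters of Prim1, Mcm5, Bub1b and Ccnb2 are shown because these genes ranked first, within their set and among genes with an entry, by p-value over the 3 tested comparisons. Those of Mcm6, Cdc20 and Top2a were chosen after their values were seen, because the genes lay far from the rest in library WT2. The choice is not complete. Slbp lay further below the median of the other libraries there (−1.41 on the log2 scale, against −1.21 for Mcm6) and is not shown. Its promoter entry has 0 E2F matches and that of Mcm6 has 3. Capitals mark the matches, on either strand, and in Mcm5 and Mcm6 a pair of E2F matches overlaps. The last 30 bases lay in a transcript of the same gene for 29 of 34 entries. For Mcm5 and Mcm6 they did not, so the gene's start in these sequences is less certain. The Prim1 sequence is chr10:128014965-128015264, plus strand. That of Mcm5 is chr8:75109259-75109558, plus strand. The Mcm6 sequence is chr1:128359656-128359955, minus strand. Bub1b lies at chr2:118597961-118598260, plus strand. Ccnb2 lies at chr9:70421505-70421804, minus strand. The Cdc20 sequence is chr4:118437294-118437593, minus strand. Top2a lies at chr11:99024140-99024439, minus strand.
Prim1: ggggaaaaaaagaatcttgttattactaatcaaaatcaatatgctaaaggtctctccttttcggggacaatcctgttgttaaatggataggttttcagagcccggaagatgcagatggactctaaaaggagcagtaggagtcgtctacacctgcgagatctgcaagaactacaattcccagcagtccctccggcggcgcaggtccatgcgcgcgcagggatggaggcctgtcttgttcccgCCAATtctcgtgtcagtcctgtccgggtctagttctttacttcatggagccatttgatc
Mcm5: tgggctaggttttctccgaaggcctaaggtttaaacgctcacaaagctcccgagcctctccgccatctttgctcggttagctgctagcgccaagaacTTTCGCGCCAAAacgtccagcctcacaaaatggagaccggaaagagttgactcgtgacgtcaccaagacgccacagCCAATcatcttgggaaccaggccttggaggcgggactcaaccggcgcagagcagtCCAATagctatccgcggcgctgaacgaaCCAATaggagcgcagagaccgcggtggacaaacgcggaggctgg
Mcm6: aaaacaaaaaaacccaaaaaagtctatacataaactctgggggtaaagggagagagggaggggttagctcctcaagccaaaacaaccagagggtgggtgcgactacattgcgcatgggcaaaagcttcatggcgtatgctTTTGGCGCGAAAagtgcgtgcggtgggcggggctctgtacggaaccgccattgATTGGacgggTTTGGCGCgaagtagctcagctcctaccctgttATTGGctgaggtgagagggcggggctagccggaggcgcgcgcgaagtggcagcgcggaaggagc
Bub1b: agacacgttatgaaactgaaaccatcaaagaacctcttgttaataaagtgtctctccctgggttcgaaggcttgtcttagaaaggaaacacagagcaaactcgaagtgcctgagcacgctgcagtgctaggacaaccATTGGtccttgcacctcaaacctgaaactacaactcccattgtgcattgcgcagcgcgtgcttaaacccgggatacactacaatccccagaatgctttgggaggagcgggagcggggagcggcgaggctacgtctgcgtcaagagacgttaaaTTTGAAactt
Ccnb2: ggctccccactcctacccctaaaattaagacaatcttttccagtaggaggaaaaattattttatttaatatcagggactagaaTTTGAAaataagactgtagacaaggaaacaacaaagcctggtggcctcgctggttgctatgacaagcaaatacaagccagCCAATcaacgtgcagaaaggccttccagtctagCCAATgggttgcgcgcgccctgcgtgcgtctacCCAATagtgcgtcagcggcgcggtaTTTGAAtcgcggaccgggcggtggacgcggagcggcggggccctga
Cdc20: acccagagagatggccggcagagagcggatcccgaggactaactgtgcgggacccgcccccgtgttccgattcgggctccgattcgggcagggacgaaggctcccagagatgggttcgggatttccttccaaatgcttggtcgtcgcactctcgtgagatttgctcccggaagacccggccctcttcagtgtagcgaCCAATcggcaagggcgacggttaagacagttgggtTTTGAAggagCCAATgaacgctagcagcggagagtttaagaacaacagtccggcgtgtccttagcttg
Top2a: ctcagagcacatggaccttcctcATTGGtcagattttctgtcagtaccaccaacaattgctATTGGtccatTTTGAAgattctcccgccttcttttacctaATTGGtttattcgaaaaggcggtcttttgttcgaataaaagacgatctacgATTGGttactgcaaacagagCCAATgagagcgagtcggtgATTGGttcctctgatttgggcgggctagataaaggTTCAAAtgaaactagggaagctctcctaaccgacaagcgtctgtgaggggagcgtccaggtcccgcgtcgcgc

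Between 1898350 (WT2) and 2564478 (WT1) expected counts were listed for a library, and the most abundant row, NCBI gene 100861531, held 12.9% to 24.1% of them, most in WT2. Levels are given as CPM, counts scaled to the library total after TMM adjustment. A list of 10 embryoid body markers summed to between 3603 CPM in KD and 4433 in WT1. Its streak markers T, Mixl1, Mesp1, Foxa2 and Eomes were each lowest in WT2 (54.6, 7.20, 10.8, 84.6 and 312 CPM). So were Dnmt3b, Fgf5 and Sox17. Pou5f1 was highest in WT2 (2188 CPM), and Otx2 (257 CPM in WT2) lay within the range of the other libraries. A list of 10 feeder fibroblast markers, feeder cells being the mouse fibroblasts under stem cell cultures, summed to between 8.63 and 18.5 CPM. A list of 10 macrophage markers summed to between 69.7 and 132 CPM in 6 libraries, nearly all of it C1qc, and to 299 CPM in KD. The part of these differences in the results below was not tested. In bulk RNA, fewer cycling cells and less RNA of these genes per cell cannot be told apart.

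To order genes among themselves, the deposited TPM, a level per length, was used, with mean CPM beside it. By mean TPM over the 7 libraries, Birc5 (survivin, of the passenger complex) stood first at 492, then Top2a (topoisomerase II alpha, which untangles sister chromatids) at 453. Mcm7 and Mcm3, helicase subunits, followed at 350.2 and 206, and Ube2c, the E2 enzyme of the anaphase promoting complex, at 187. The lowest were Aurkb at 1.89, Cdk1 at 11.0 and Ccne2 at 11.5. These reads come from transcript ends, so division by length lowers long genes such as Cenpf and Mki67. By mean CPM, without length, Top2a stood first at 851, then Mcm7 at 395, Birc5 at 371, Cenpf at 287 and Mcm3 at 259. The deposited length was also longer, by 2000 bases within 100, than the same transcript's length in GENCODE for 70.4% of 27 matched members and 64.5% of 6700 matched genes tested, so TPM orders these genes only roughly.

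Among the licensing and helicase genes, the subunits of the helicase ring had unlike patterns. Mcm7 (NCBI gene 17220) stood at 375 and 523 CPM in WT1 and WT2, 384 and 386 in pKO1 and pKO2, 328 in pInv, 357 in KD and 413 in Ctrl. Mcm3 (NCBI gene 17215) was at 261 and 349.9 CPM in WT1 and WT2, 266 and 254 in pKO1 and pKO2, 243 in pInv, 206 in KD and 233 in Ctrl. Both were highest in WT2, and apart from it spanned a narrow range (SD of log2 CPM 0.11 and 0.13 over the other 6 libraries). Mcm6 (NCBI gene 17219), a subunit of the same ring described here because of its values, stood at 113 and 45.6 CPM in WT1 and WT2, 104 and 54.2 in pKO1 and pKO2, 61.5 in pInv, 109.9 in KD and 140.1 in Ctrl. It was lowest in WT2, where Mcm3 and Mcm7 were highest, next lowest in pKO2, and highest in Ctrl. Mcm5 (NCBI gene 17218) was at 198 and 246 CPM in WT1 and WT2, 201 and 197 in pKO1 and pKO2, 298 in pInv, 159.8 in KD and 172 in Ctrl. Its highest library was pInv, above both WT and both pKO libraries. Mcm2 was lowest in WT2 (28.2 CPM) and pKO2 (30.8) and highest in pKO1 (66.9), whereas Mcm4 kept between 22.9 and 32.5 CPM.

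The loaders and activators held both the steadiest and the most variable gene of the S-phase set. Cdc6 (NCBI gene 23834) was at 35.2 and 41.4 CPM in WT1 and WT2, 39.2 and 30.8 in pKO1 and pKO2, 36.1 in pInv, 33.7 in KD and 28.4 in Ctrl. It had the smallest SD of the S-phase set, 0.18 on the log2 scale. Cdt1 (NCBI gene 67177), its partner in loading, was at 164 and 88.2 CPM in WT1 and WT2, 157 and 109 in pKO1 and pKO2, 222 in pInv, 164 in KD and 112 in Ctrl. The pInv library was highest and WT2 lowest. Gmnn, the inhibitor of Cdt1, lay between 9.60 CPM in WT2 and 25.9 in KD. Gins2 (NCBI gene 272551) was at 22.9 and 7.20 CPM in WT1 and WT2, 22.5 and 10.3 in pKO1 and pKO2, 39.5 in pInv, 23.5 in KD and 4.57 in Ctrl. It had the largest SD of all members tested, 1.03, with Ctrl lowest on 9 counts and pInv highest, and WT2 and pKO2 below the other libraries but Ctrl.

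Genes of the replication fork and of nucleotide supply included both high and low values in WT2. Pola1 (NCBI gene 18968), the catalytic subunit of polymerase alpha, stood at 111 and 178 CPM in WT1 and WT2, 119.9 and 118 in pKO1 and pKO2, 117 in pInv, 94.7 in KD and 125 in Ctrl. It was highest in WT2 and lowest in KD, with pKO within the range of WT. Prim1 (NCBI gene 19075), the small primase subunit, was at 17.6 and 14.4 CPM in WT1 and WT2, 11.5 and 15.2 in pKO1 and pKO2, 7.21 in pInv, 18.01 in KD and 14.7 in Ctrl. It was lowest in pInv, and its expected counts were off whole numbers by over 0.05 in all 7 libraries, which RSEM gives where it splits reads between features, so its level is uncertain. Pcna (NCBI gene 18538) was at 33.4 and 12.6 CPM in WT1 and WT2, 44.0 and 22.6 in pKO1 and pKO2, 24.2 in pInv, 38.3 in KD and 20.8 in Ctrl. It was highest in pKO1 and lowest in WT2, and within both WT and pKO the library numbered 2 was the lower. Fen1 (NCBI gene 14156), the flap nuclease of Okazaki fragments, was at 10.9 and 16.2 CPM in WT1 and WT2, 12.9 and 13.5 in pKO1 and pKO2, 12.3 in pInv, 13.4 in KD and 16.2 in Ctrl, the lowest mean CPM of the set. Of the ribonucleotide reductase subunits, Rrm1 was highest in WT2 (170 CPM) and Rrm2 lowest there (9.60 CPM). Tyms, thymidylate synthase, with counts not whole in 6 libraries, lay between 24.6 CPM in WT2 and 48.7 in Ctrl.

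The cyclin E genes had unlike patterns. Ccne1 (NCBI gene 12447) was at 25.5 and 14.4 CPM in WT1 and WT2, 28.2 and 15.6 in pKO1 and pKO2, 22.9 in pInv, 29.6 in KD and 15.2 in Ctrl. Its WT2, pKO2 and Ctrl values lay together below the other 4. Ccne2 (NCBI gene 12448) was at 15.0 and 10.2 CPM in WT1 and WT2, 14.3 and 12.7 in pKO1 and pKO2, 25.9 in pInv, 11.5 in KD and 13.7 in Ctrl. The pInv value stood above the other 6 libraries. Slbp (NCBI gene 20492), which binds the stem-loop of replication-dependent histone mRNAs, was at 44.2 and 17.4 CPM in WT1 and WT2, 62.6 and 20.9 in pKO1 and pKO2, 39.0 in pInv, 56.3 in KD and 51.3 in Ctrl. Its WT2 and pKO2 values were the lowest, below every other library, and WT and pKO overlapped.

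**Figure D1:**
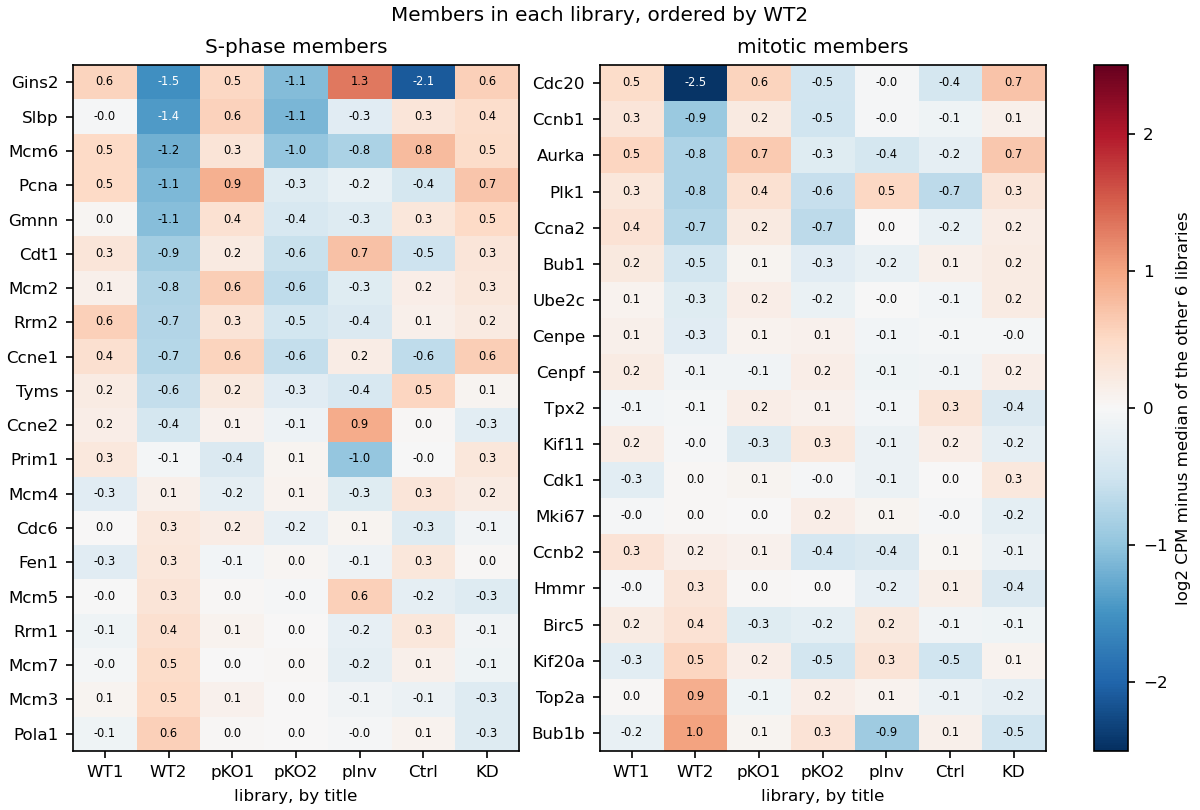
Heat map of each tested member's log2 CPM minus the median of the other 6 libraries, with members in rows by set and libraries in columns (blue lower, red higher). The WT2 column holds both the strongest blue (Cdc20, −2.46) and some of the strongest red ones (Top2a, 0.90).

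Among the mitotic cyclins and their kinase, Ccnb2 (NCBI gene 12442) was at 34.9 and 30.6 CPM in WT1 and WT2, 29.1 and 21.3 in pKO1 and pKO2, 22.1 in pInv, 25.9 in KD and 28.4 in Ctrl. Both WT libraries lay above both pKO libraries and pInv. Ccnb1 ran from 57.6 CPM in WT2 to 129 in WT1, and Ccna2, cyclin A, from 27.0 in WT2 to 53.6 in WT1. Cdk1 (NCBI gene 12534) was at 11.2 and 13.8 CPM in WT1 and WT2, 14.3 and 13.5 in pKO1 and pKO2, 12.3 in pInv, 16.6 in KD and 13.7 in Ctrl, the lowest mean CPM of the mitotic genes tested. Its 7 values lay close together (SD of log2 CPM 0.17).

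The mitotic kinases Plk1 and Aurka were lowest in WT2, where the checkpoint kinase Bub1b was highest. Plk1 (NCBI gene 18817) was at 92.2 and 54.0 CPM in WT1 and WT2, 99.4 and 62.0 in pKO1 and pKO2, 108 in pInv, 93.3 in KD and 58.9 in Ctrl. Next to WT2, Ctrl and pKO2 were lowest, and pInv was highest. Aurka (NCBI gene 20878) was at 67.8 and 33.0 CPM in WT1 and WT2, 74.5 and 46.0 in pKO1 and pKO2, 41.6 in pInv, 75.3 in KD and 47.7 in Ctrl. WT and pKO overlapped, KD and pKO1 were highest, and pInv, where Plk1 was highest, was the lowest after WT2. Bub1b (NCBI gene 12236) was at 15.7 and 34.2 CPM in WT1 and WT2, 17.7 and 21.3 in pKO1 and pKO2, 9.34 in pInv, 12.5 in KD and 18.3 in Ctrl. It was highest in WT2 and lowest in pInv, below all other libraries. Bub1, its paralog in the checkpoint, kept between 21.6 CPM in WT2 and 33.4 in WT1, with counts not whole in 5 libraries.

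Cdc20 (NCBI gene 107995) set WT2 apart from all other libraries. It was at 108 and 16.8 CPM in WT1 and WT2, 116 and 69.3 in pKO1 and pKO2, 86.6 in pInv, 129 in KD and 71.6 in Ctrl. WT2 lay 5.52-fold below the median of the other 6 libraries, which spanned 69.3 to 129 CPM. Ube2c, which works with the same ligase and had counts not whole in 6 libraries, was also lowest in WT2, but within a narrow range (115 to 157 CPM).

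Most spindle and kinetochore genes varied little between libraries. Cenpf (NCBI gene 108000), an outer kinetochore protein, was at 314 and 273 CPM in WT1 and WT2, 272 and 307 in pKO1 and pKO2, 267 in pInv, 307 in KD and 272 in Ctrl. Its SD of log2 CPM, 0.10, was the smallest of the mitotic set. Its counts were whole in none of the 7 libraries, and not whole in 6 for the kinetochore motor Cenpe and the spindle motor Kif11. Cenpe, Kif11, Tpx2 (an activator of Aurka), Mki67 (the proliferation antigen) and Hmmr had an SD of 0.22 or less. Top2a (NCBI gene 21973) was at 777 and 1406 CPM in WT1 and WT2, 733 and 848 in pKO1 and pKO2, 800.4 in pInv, 678 in KD and 714 in Ctrl. WT2 stood 1.86-fold above the median of the others, which spanned 678 to 848 CPM. Birc5 (NCBI gene 11799) was at 404 and 453 CPM in WT1 and WT2, 305 and 317 in pKO1 and pKO2, 416 in pInv, 350.5 in KD and 353 in Ctrl. Both pKO libraries were the lowest of the 7. Kif20a, a motor of cytokinesis, lay between 16.8 CPM in Ctrl and 31.8 in WT2.

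**Figure D2:**
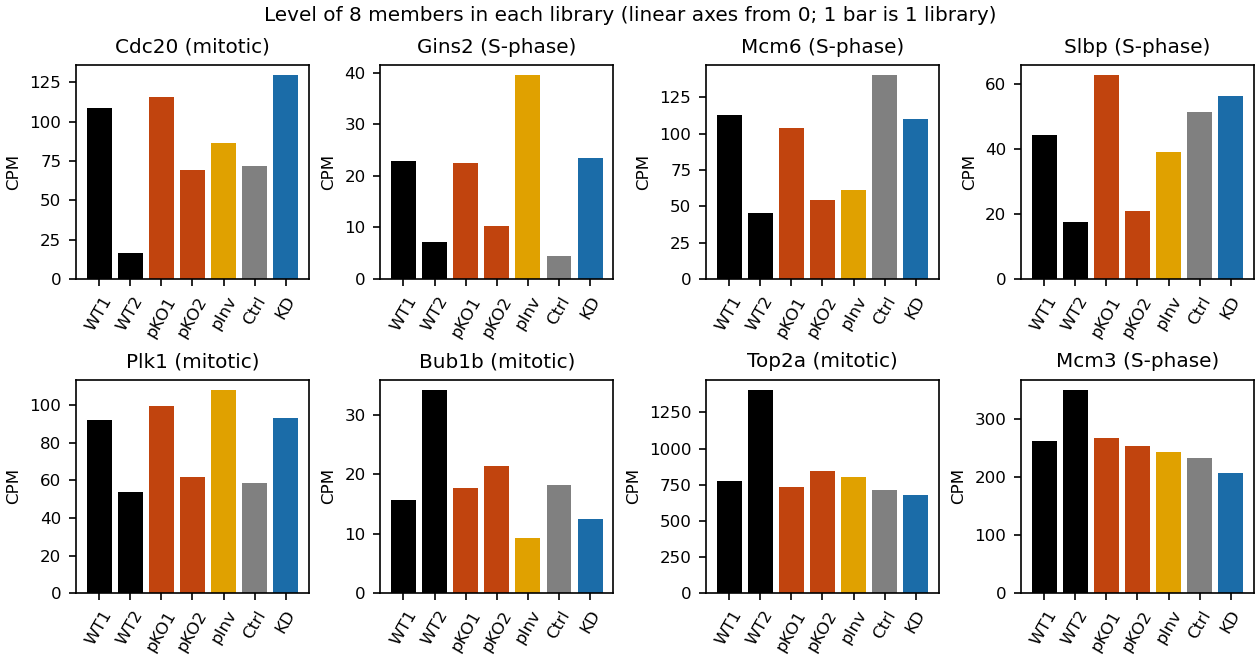
Bars of CPM in each library for Cdc20, Gins2, Mcm6, Slbp, Plk1, Bub1b, Top2a and Mcm3, coloured by title group, 1 bar a library and each panel on its own axis from 0. WT2 has the lowest bar of Cdc20 (16.8 CPM) and the highest of Top2a (1406 CPM).

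Taken as sets, neither the S-phase nor the mitotic genes followed the groups. The mean log2 CPM of the mitotic genes minus that of the S-phase genes was 0.66 and 0.81 in WT1 and WT2, 0.57 and 0.80 in pKO1 and pKO2, 0.61 in pInv, 0.58 in KD and 0.65 in Ctrl. Gene lengths are the same in each library, so only differences of this balance between libraries can be read. The highest balances were those of the libraries numbered 2, of WT and of pKO alike, and the ranges of WT and pKO overlapped. The S-phase genes varied more between libraries, with a median SD of log2 CPM of 0.40, and 0.31 without WT2. The mitotic genes had 0.22 and 0.20, and all 4682 genes with a mean of 20 CPM or more had 0.27 and 0.23. The S-phase genes had lower counts (median 35.2 against 81.1 CPM). At a mean of 20 CPM or more the 14 S-phase genes left had a median SD of 0.32 and the 17 mitotic genes 0.22.

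The library titled WT2 split each set. It had the lowest total and the highest share of the most abundant row. It also had the lowest T, Mixl1, Mesp1, Foxa2 and Eomes and the highest Pou5f1. The part of these traits was not tested. Among the 31 members with a mean of 20 CPM or more, WT2 was at most 0.5 times the median of the other 6 libraries for 4 (Slbp, Mcm6, Pcna and Cdc20), against 9.27% of all such genes. It was 2 times that median or more for 0 members, against 2.56% of genes. In pKO2, 1 member, Slbp, was at most 0.5 times the median, against 2.03% of genes. WT2 was the lowest of the 7 libraries for 15 of the 31 members, against 29.3% of genes, and the highest for 9, against 30.7%. The deviation of WT2 had an SD over the genes of 0.71 in the S-phase set and 0.77 in the mitotic set on the log2 scale. Over all genes at 20 CPM or more it was 0.70. The set values also take in members under 20 CPM. With that difference in cut, the scatter in WT2 was about that of genes at large.

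The same members tended to be low in WT2 and in pKO2. The difference WT2 minus WT1 and the difference pKO2 minus pKO1, which share no library, had a Pearson r of 0.741 and a Spearman rho of 0.765 over the 39 members. Over the 31 members at 20 CPM or more r was 0.717, and over all 4682 genes at that level 0.496. The points share the depth and composition of the 4 libraries, and genes are not independent replicates, so these are descriptions. In both pairs 19 of 39 members were lower in the library numbered 2, against 31.3% of genes tested, 7 were higher in both, against 30.3%, and 13 differed in sign. Cdc20 had log2 differences of −2.62 and −0.73, Slbp of −1.30 and −1.54, Mcm6 of −1.29 and −0.93, and Mcm2 of −0.75 and −1.10. On the other side stood Bub1b with 1.08 and 0.26 and Top2a with 0.85 and 0.21.

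**Figure D3:**
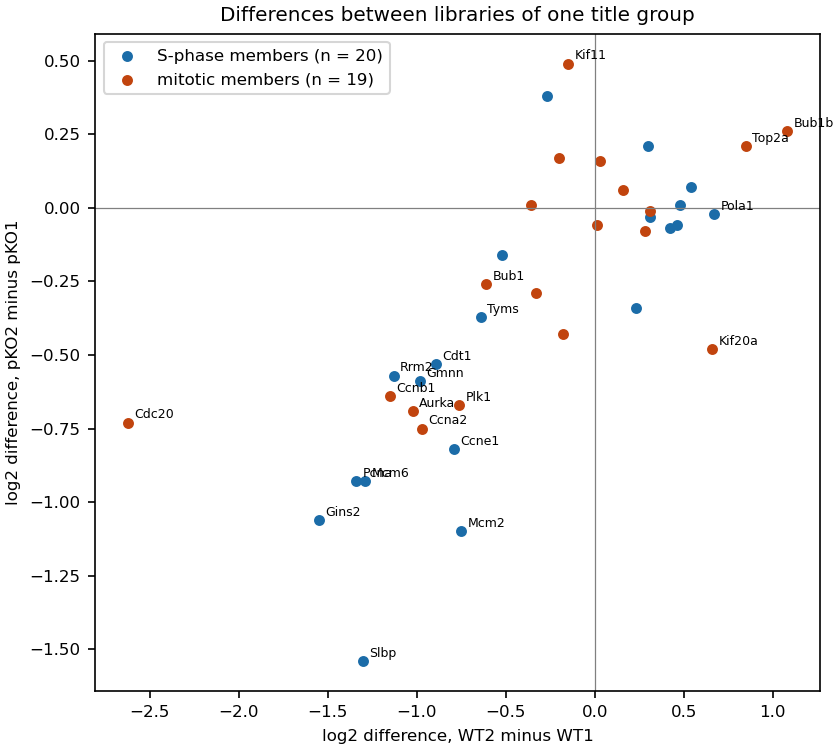
Each point is a tested member, placed by its log2 CPM difference WT2 minus WT1 (x axis) and pKO2 minus pKO1 (y axis), coloured by set. Over the 39 points r was 0.741, with 19 points lower in both pairs (31.3% of genes tested) and 7 higher in both (30.3%).

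The members low in WT2 were shorter by the deposited length. In WT2, 23 members lay under the median of the other 6 and had a median length of 4214 bases and the 16 above it had 5583, with a Spearman rho of 0.467 over the 39. By set, rho was 0.606 for the S-phase genes and 0.258 for the mitotic genes. Over all genes at 20 CPM or more rho was −0.0052, whereas the member values also take in members under that level. The part of length in the members' pattern was not tested. A weaker likeness joined WT1 minus WT2 with KD minus Ctrl. Here r was 0.584 over the members, 0.568 over those at 20 CPM or more and 0.389 over all genes at that level.

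No member passed the test between pKO and WT, the comparison that asks whether loss of the Meteor promoter moved these genes. With edgeR's quasi-likelihood test, adjusted by Benjamini-Hochberg over all 10265 genes, 0 of 39 members were called, and 0% of all genes. At an unadjusted p under 0.05 it was 0 members, against 1.03% of genes, and DESeq2 called 0 members. The S-phase genes had a median log2 difference of 0.00, with 10 higher and 10 lower in pKO, and the mitotic genes −0.02, with 9 higher and 10 lower, beside 0.00 over all genes tested. The S-phase median depends on 1 library: it was 0.44 without WT1. The smallest p was that of Birc5, with 311 ± 8.43 CPM in pKO (SD, n = 2) and 428 ± 34.6 CPM in WT (SD, n = 2), a log2 difference of −0.46 (SE 0.25), a p of 0.108 and an adjusted p of 1 by edgeR. Ccnb2 differed by −0.37 (SE 0.33) and Top2a by −0.47 (SE 0.33). Without pKO2 the Ccnb2 difference was −0.16 and without pKO1 −0.59, and without WT2 the Top2a difference was 0.04. Among S-phase genes Pcna (0.49, SE 0.51), Pola1 (−0.28, SE 0.30) and Mcm3 (−0.23, SE 0.27) had the smallest p. Without pKO1 the Pcna difference was −0.04, and without WT2 those of Pola1 and Mcm3 were 0.12 and 0.01. Both pKO libraries lay above both WT libraries for 1 member, Tpx2, against 12% of genes, and below for 2, Birc5 and Ccnb2, against 12.9%. The median SE was 0.36 on the log2 scale for S-phase and 0.33 for mitotic genes, so small differences were not detectable with these libraries. Over all genes tested the log2 differences ran from −3.04 to 5.66, and 0 were called. Genes at those ends can have larger SEs than the members, so they do not tell what was missed among the members. Among the members the SE ran from 0.25, for Birc5 and Mki67, to 0.68, for Cdc20. The absence of calls does not exclude sizeable changes in the members, least of all in those with a large SE.

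No member passed the test in the comparisons of the single pInv library. Gins2, Ccne2, Cdt1, Mcm5 and Plk1 were highest of the 7 libraries in pInv, and Prim1, Bub1b, Mcm4, Mcm7, Rrm1 and Cenpf lowest. Among the 31 members with a mean of 20 CPM or more, pInv was highest for 3, against 16.7% of such genes, and lowest for 4, against 12.2%. With 1 library, pInv has no spread of its own: its SEs and p-values take that of WT and pKO and assume that pInv varies alike. That spread had 2 residual degrees of freedom, to which the fit added a prior of 5.86 drawn from all genes. Against WT, 0 of 39 members were called, and 0% of genes, while 1 member, Bub1b, had an unadjusted p under 0.05, against 1.48% of genes. DESeq2 called 0 members. Bub1b had 9.34 CPM in pInv and 25.0 ± 13.1 CPM in WT (SD, n = 2), a log2 difference of −1.32 (SE 0.56), at a p of 0.0482 and an adjusted p of 1 by edgeR. Leaving out 1 WT or pKO library at a time moved it between −1.78 and −0.71, the latter without WT2. Ccne2 was 0.97 (SE 0.42) and Gins2 1.30 (SE 0.64) on the log2 scale, both higher in pInv, and Prim1 was −1.07 (SE 0.47). Gins2 moved between 0.76, without WT2, and 2.31, without WT1. Of the other mitotic genes, Ccnb2 was −0.55 (SE 0.42) and Plk1 0.55 (SE 0.43), and Plk1 moved between 0.23, without WT2, and 0.99, without WT1. The set medians were −0.10 (9 S-phase genes higher, 11 lower) and −0.01 (8 mitotic genes higher, 11 lower), beside −0.01 over all genes. The S-phase median was 0.32 without WT1. The pInv library lay above both WT libraries for 6 members, against 29% of genes, and below both for 11, against 28%.

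Against pKO, 0 of 39 members were called in edgeR's test, and 0% of genes, with 0 at an unadjusted p under 0.05, against 1.49% of genes, and 0 called by DESeq2. Gins2 (1.23, SE 0.64), Ccne2 (0.89, SE 0.42) and Mcm5 (0.58, SE 0.31) were higher in pInv on the log2 scale. Bub1b (−1.0, SE 0.56) and Aurka (−0.52, SE 0.51) were lower, and Birc5 (0.42, SE 0.30) was higher. The adjusted p in edgeR's test was 1 for each. Without pKO1 Gins2 was 1.83, Aurka −0.17 and the S-phase median 0.07, and without pKO2 they were 0.79, −0.83 and −0.23. The pInv library lay above both pKO libraries for 7 members, against 34.2% of genes, and below both for 15, against 31.5%. The medians were −0.15 for S-phase genes (6 higher, 14 lower) and −0.08 for mitotic genes (6 higher, 13 lower), beside 0.00 over all genes, and the median SEs were 0.44 and 0.41. The pInv library is shared by both comparisons, so the recurrence of Gins2, Ccne2 and Bub1b is not independent.

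**Figure D4:**
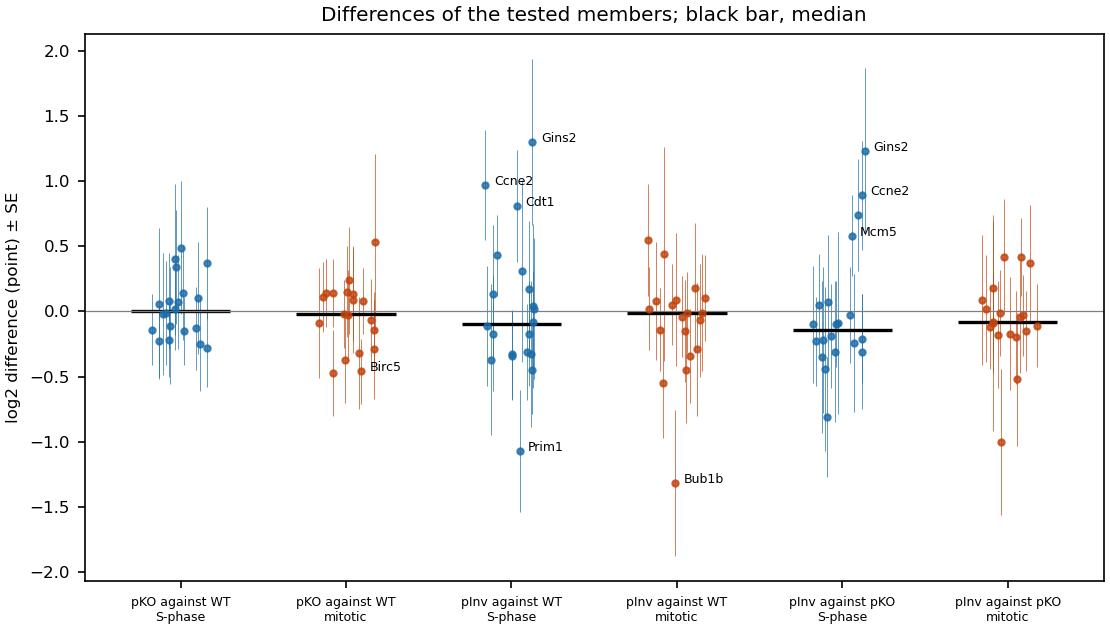
Log2 differences of every tested member with SE bars for pKO against WT, pInv against WT and pInv against pKO, by set, with a line at each set's median. Medians lie between −0.15 and 0.00, and the widest points are Bub1b (−1.32) and Gins2 (1.30) in pInv against WT.

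The knockdown and its control have 1 library each, so their difference has no replicate check and no test. Ratios of KD to Ctrl thus carry intervals of counting error only. No molecular identifiers are named, so copies of 1 molecule may be counted as separate reads, and the intervals may be too narrow even for counting error. Of the members at 20 CPM or more in either library, 16 S-phase and 17 mitotic genes, 1 was 2-fold or more higher in KD, against 3.93% of 5083 such genes, and 0 were lower, against 1.08%. That was Gins2, on 51 counts in KD against 9 in Ctrl, with a ratio of 5.15 (exact 95% counting interval 2.51 to 11.9). The Ctrl value was the lowest of the 7 libraries and the KD value (23.5 CPM) close to WT1 (22.9) and pKO1 (22.5). Next in the S-phase set were Ccne1 at 1.94 (exact 95% counting interval 1.24 to 3.10) and Pcna at 1.84 (exact 95% counting interval 1.25 to 2.75). In the mitotic set Cdc20 had 1.81 (exact 95% counting interval 1.47 to 2.23), Plk1 1.58 (exact 95% counting interval 1.25 to 2.01) and Aurka 1.58 (exact 95% counting interval 1.22 to 2.06). The interval lay above 1 for 8 members, also Cdt1 and Cenpf, against 13.6% of genes tested. It lay below 1 for 6, against 10.2%: Pola1, Mcm6, Rrm1 and Mcm7 of replication, and Tpx2 (0.647) and Hmmr (0.697) of the spindle. The medians of the log2 ratio were −0.01 for S-phase and 0.08 for mitotic genes, beside 0.01 over all genes.

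**Figure D5:**
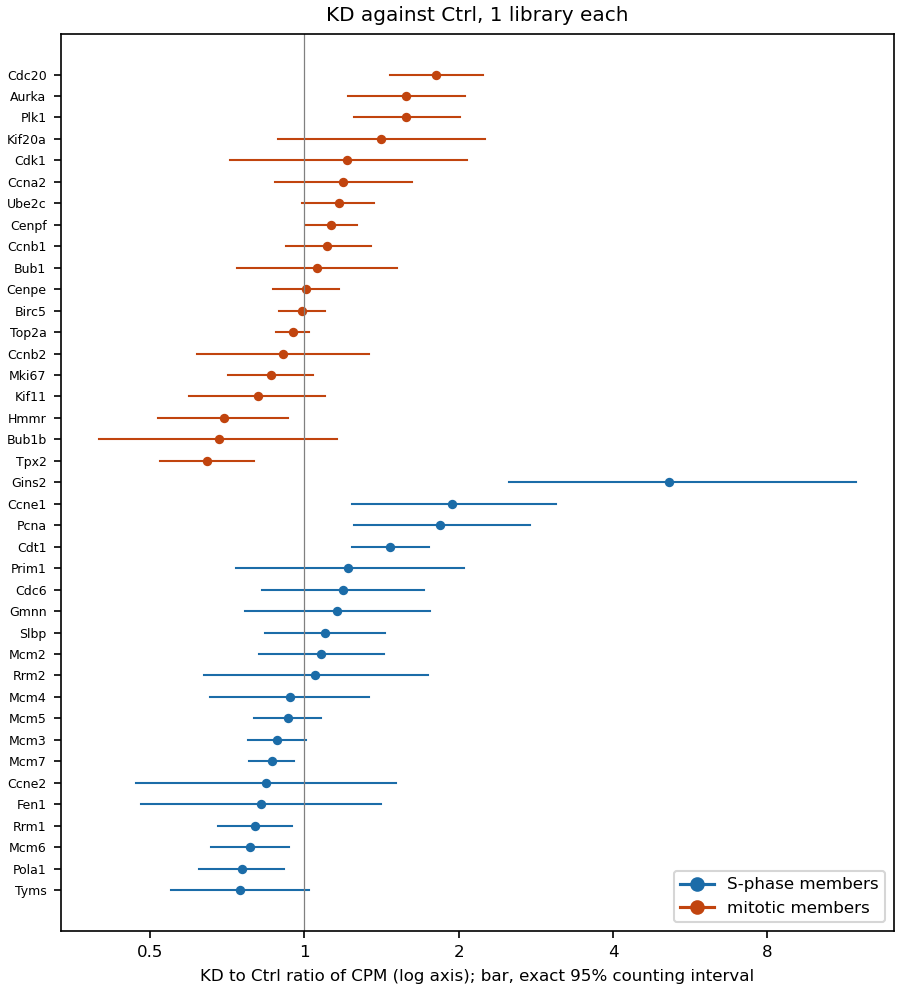
KD to Ctrl ratio of CPM for every tested member on a log axis, with exact 95% counting intervals, by set. Gins2 (5.15) stands past a ratio of 2, and all other members lie between Tpx2 (0.647) and Ccne1 (1.94).

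The KD library also differed in macrophage markers. Lyz2 was at 175 CPM in KD and at most 0.750 CPM in the other 6 libraries, and Csf1r and Adgre1 were at 12.5 and 28.6 CPM in KD and at 0 in the other 6. Of the 10 markers Ptprc, Fcer1g and C1qa were at 0 in KD. The part of such cells in the KD to Ctrl ratios was not tested.

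Further genes of the same pathways, from lists outside the 40, were not called either. Of 44 other replication genes, 49 other mitosis genes and 31 cell cycle regulators tested, 0 were called by edgeR's quasi-likelihood test in any of the 3 comparisons. Their median log2 differences were −0.05, 0.09 and 0.00 for pKO against WT, 0.06, 0.01 and 0.15 for pInv against WT, and 0.09, −0.09 and 0.15 for pInv against pKO. At an unadjusted p under 0.05 stood Pola2, the accessory subunit of polymerase alpha, for pInv against WT, on at most 8.49 CPM, and Ung, uracil-DNA glycosylase, for pInv against pKO. Ung was at 138 and 103 CPM in WT1 and WT2, 103 and 76.7 in pKO1 and pKO2, 164 in pInv, 105 in KD and 123 in Ctrl. It was highest in pInv and lowest in pKO2. The third was Ccnd2, cyclin D2, for pInv against WT, at 243 and 172 CPM in WT1 and WT2, 121 and 156 in pKO1 and pKO2, 109.9 in pInv, 181 in KD and 148 in Ctrl. WT1 was highest, and both WT libraries lay above both pKO libraries and pInv. Its log2 difference was −0.91 for pInv against WT and −0.58 for pKO against WT, and edgeR's adjusted p was 1 for both. Between KD and Ctrl, Cks2, a small Cdk-binding protein, had a ratio of 2.30 (exact 95% counting interval 1.71 to 3.14). For Mycn, the N-Myc gene, it was 3.46 (exact 95% counting interval 2.09 to 5.97). Mycn was at 15.4 and 9.60 CPM in WT1 and WT2, 29.1 and 10.3 in pKO1 and pKO2, 18.2 in pInv, 35.1 in KD and 10.2 in Ctrl. As with Gins2 and Ccne1, Ctrl, WT2 and pKO2 were the lowest libraries. Of the other replication genes 0 passed 2-fold at 20 CPM or more, of the other mitosis genes 1 (Cks2) and of the regulators 1 (Mycn). Of all 5083 genes at that level, 3.93% were 2-fold or more higher in KD and 1.08% lower. The KD list medians were −0.12 for replication, −0.16 for mitosis and 0.09 for regulators on the log2 scale.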

How the data were processed

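Polyadenylated RNA of 7 samples was made into Lexogen QuantSeq 3′ libraries, per the labels' protocols. The deposited tables hold RSEM expected counts per gene per the file headers, on mm9, per the submitters' processing notes. The RSEM version is not given. The authors did not normalise the expected counts, and they were rounded to whole numbers here. The TPM values deposited by the authors are scaled by length to 1 common library total, and gave gene order and 1 alternative. No source used here gives trimming, strand or duplicate handling, so an overlapping gene cannot be told apart.

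Names came from a RefSeq gene table of GRCm38, matched by NCBI gene number. Of 24990 features, 23447 were single genes and 375 merged genes. The fit used edgeR 4.0.16 (R 4.3.3): filterByExpr (minimum count 10) by group, TMM, and 1 quasi-likelihood fit of all 7 libraries with a coefficient per title group and no covariate. It had 2 residual degrees of freedom, a prior of 5.86 and a common biological coefficient of variation of 0.294. P-values were adjusted by Benjamini-Hochberg over all genes tested, with a threshold of 0.05. CPM are counts scaled to the TMM-adjusted library total, and 2 was the prior count of log2 values. KD and Ctrl were compared by size (2-fold at 20 CPM or more), with exact binomial 95% intervals.

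Alternatives were DESeq2 1.42.0, limma 3.58.1 on log2(TPM + 1), other scalings and filters, the genotype field and a replicate block. Each WT and pKO library was also left out in turn. The steps were tested on simulated counts. The 40 genes, the further lists and the tests were chosen with earlier results of these data known. Values in every library were given for the members with the 3 smallest p per set and comparison, the 3 largest KD ratios, and the extremes of level and of SD. Mcm6 and Cdt1 were added after their values were seen, as were single values of other members. Further genes were named by the 2 smallest p or largest KD ratios of each list.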

Additional observations from a re-analysis of the deposited data

How the results depend on the processing

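The number of members called was 0 in each of the 3 tested comparisons under every alternative run. With groups from the genotype field, some genes outside the members were called for pInv against WT. In that grouping the inversion is the single library pKO1. Leaving out 1 WT or pKO library at a time moved the median differences of pKO against WT. They lay between −0.21 and 0.44 for S-phase and between −0.14 and 0.10 for mitotic genes. For pInv against WT they lay between −0.13 and 0.32 and between −0.19 and −0.02. Of single genes in pKO against WT, Mcm3 lay between −0.43 and 0.01, Pola1 between −0.58 and 0.12, Top2a between −0.83 and 0.04, Pcna between −0.04 and 1.33 and Ccnb2 between −0.59 and −0.16. Scaling by library size alone gave a mitotic median of 0.10 for pInv against WT, beside 0.09 over all genes tested. For KD against Ctrl it gave a mitotic median of 0.20, and 2 members past 2-fold in KD. The mitotic median of pKO against WT was 0.06 without the low count filter and 0.06 with limma on log2(TPM + 1). With the latter, the median over all genes tested was 0.06 as well. The cause of these shifts was not tested.

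Groups taken from the genotype field turned the direction of 13 single-gene differences. For pKO against WT, Pola1 became 0.30, Mcm3 0.30, Birc5 0.22, Top2a 0.41 and Ccnb2 0.58. For pInv against WT, Ccne2 became −0.41, Prim1 0.03, Gins2 −0.14, Bub1b 0.19 and Ccnb2 0.41, with a mitotic median of 0.14. For pInv against pKO, Mcm5 became −0.14, Birc5 −0.49 and Aurka 0.54, with medians of 0.16 (S-phase) and 0.09 (mitotic).

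With a replicate block, fitted on the WT and pKO libraries alone, pKO against WT had medians of 0.04 and 0.00. The balance difference was −0.05, and 0 members were called. In that fit 224 of all genes had an unadjusted p under 0.05 by edgeR's test, and 106 in the main fit of all 7 libraries. Those counts differ in the libraries fitted as well as in the block, so the block's own part cannot be read from them. The 2 number pairs deviated together (r 0.496 over genes at 20 CPM or more), but with only 2 pairs the numbers are not known to pair the samples. With 1 or 2 libraries a group each, members at low counts such as Gins2, Ccne2 and Prim1 are the least certain.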
